A study of Mus musculus with 12 samples.

Results

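The expressed protein-coding genes of mouse chromosome 14 were compared between a fibroblast-derived line labelled as lacking HP1γ and a line recomplemented for HP1γ. The genes were all those that GENCODE M21 places on chromosome 14 as protein-coding and that had a mean of at least 2 CPM over the 12 libraries (CPM is a gene's count scaled to a common library total). This gave 357 genes of the 37310 in the table, and all 357 also passed the filter on low counts. The chromosome was chosen by the measured difference between the lines, since its genes had been seen to be higher in the knockout-labelled line, and the level threshold selected on the same libraries, so the comparison of the lines over the chromosome is given as a description, with no test of the set. The 4 groups, with 3 libraries each, were HPg (MEF-derived cells recomplemented for HP1γ, grown without PMA), HPg_p (the same cells with 100 nM of the phorbol ester PMA in DMSO for 30 min), R (HP1γ/CBX3 knockout, without PMA) and R_p (knockout with PMA). All groups share the embryonic-fibroblast origin and growth in serum, and the sources used here do not state whether cells without PMA received DMSO. A single line stands for each genotype, so a property of the line and a property of the genotype cannot be told apart, and a p-value reflects only how cultures of each line vary.

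Neighbouring genes usually differ in their regulation, while cultured mouse lines can carry extra or missing chromosomes, whose genes then tend to be transcribed in proportion to their copies. HP1γ, the product of Cbx3 on another chromosome, is a chromatin protein that recognises a methyl mark on histone tails and is found in silent heterochromatin and over active genes. PMA switches on protein kinase C and, through it, a rapid wave of growth-response genes, several of which lie on chromosome 14. The libraries hold RNA only, and the DNA copy number of chromosome 14 was not analysed here.

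Library totals ran from 111458145 to 159929347 counts, of which the 357 genes took 2.236% to 3.172%. The number of genes with a read was 19759 to 20656 in 11 libraries and 17822 in HPg library 2. Cbx3 itself was at 38.7 ± 2.45 CPM in HPg, 36.5 ± 2.2 in R, 38.6 ± 4.66 in HPg_p and 31.8 ± 4.37 in R_p (SD, n = 3), with a log2 fold change of R against HPg of -0.08 (adjusted p = 0.838, edgeR's quasi-likelihood test) and of R_p against HPg_p of -0.28 (adjusted p = 0.269). Counts over the whole gene therefore do not check the genotype label. Of 10 fibroblast markers 9 reached 1 CPM, and their summed level was 9889 to 17348 CPM over all libraries. Of 7 blood and immune markers 1 reached 1 CPM (sum 1.41 to 3.73 CPM), and of 7 epithelial markers 2 did (sum 6.30 to 9.57 CPM in the HPg line and 11.7 to 14.2 CPM in the knockout-labelled line). The sum of 6 endothelial markers, of which 4 reached 1 CPM, was 6.47 to 12.9 CPM in the HPg line and 15 to 23.2 CPM in the knockout-labelled line. The epithelial marker Dsp was called higher in both comparisons (0.88 CPM in HPg and 5.86 in R, adjusted p = 0.0345, and 0.72 in HPg_p and 4.72 in R_p, 0.0293, edgeR's quasi-likelihood test). Of the endothelial markers, Erg was called higher without PMA (4.22 and 12.8 CPM, 0.0286) and Vwf with PMA (0.66 and 2.58 CPM, 0.0394). Cdh1 (6.78 CPM in HPg and 7.07 in R) and Tek (2.19 and 2.64) were not called, nor was Kdr, which was lower in R (1.70 and 0.75). The muscle, adipocyte and neural lists had 1 of 6, 2 of 5 and 1 of 6 markers at that level, with sums that overlapped between the lines. Single markers among them were higher in the knockout-labelled line at low levels, Gap43 of neurons (0.27 CPM in HPg and 1.10 in R, adjusted p = 0.00496; 0.44 in HPg_p and 1.03 in R_p, 0.0375) and Des of muscle with PMA (0.34 and 1.14 CPM, 0.0328, edgeR's quasi-likelihood test). The part of these cell type markers in the results was not tested.

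Several kinds of chromosome 14 gene recur below, and the promoter of an example of each is shown to place the values on sequence. Ercc6 (chr14:32513271-32513570, plus strand), which encodes a repair ATPase that acts at stalled RNA polymerase, stands for genes whose average over both line comparisons is nearest the median of such averages (0.26). Ripk3 (chr14:55788808-55789107, minus strand), a kinase of necroptotic cell death, stands for the genes highest in the knockout-labelled line. Selenok (chr14:29968130-29968429, plus strand), a selenoprotein of the endoplasmic reticulum, was called higher with PMA in both lines and was picked after its sequence was seen. Cdkn3 (chr14:46760291-46760590, plus strand), a phosphatase that acts on cyclin-dependent kinases, stands for genes that were not higher in the knockout-labelled line. The sequences are RefSeq promoters on GRCm38.p6, 300 bases each, read 5′ to 3′ in the direction of the gene from 250 bases before its start. Capitals mark exact matches, on either strand, to 4 motifs that do not overlap one another. The GC box was searched as GGGCGG. The CCAAT box was searched by those letters. The TATA box was searched as TATAAA. The AP-1 site was searched as TGANTCA.
Ercc6: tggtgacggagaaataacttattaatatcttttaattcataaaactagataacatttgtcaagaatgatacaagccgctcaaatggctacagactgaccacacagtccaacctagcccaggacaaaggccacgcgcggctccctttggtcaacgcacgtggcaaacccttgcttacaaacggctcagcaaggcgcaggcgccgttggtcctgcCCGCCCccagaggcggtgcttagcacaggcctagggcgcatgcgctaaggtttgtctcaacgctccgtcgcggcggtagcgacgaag
Ripk3: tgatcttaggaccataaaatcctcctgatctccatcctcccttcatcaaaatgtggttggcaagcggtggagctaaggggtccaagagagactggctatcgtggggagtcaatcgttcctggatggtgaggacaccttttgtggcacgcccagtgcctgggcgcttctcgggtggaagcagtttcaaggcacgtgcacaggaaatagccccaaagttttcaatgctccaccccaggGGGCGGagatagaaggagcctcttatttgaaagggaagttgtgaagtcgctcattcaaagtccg
Selenok: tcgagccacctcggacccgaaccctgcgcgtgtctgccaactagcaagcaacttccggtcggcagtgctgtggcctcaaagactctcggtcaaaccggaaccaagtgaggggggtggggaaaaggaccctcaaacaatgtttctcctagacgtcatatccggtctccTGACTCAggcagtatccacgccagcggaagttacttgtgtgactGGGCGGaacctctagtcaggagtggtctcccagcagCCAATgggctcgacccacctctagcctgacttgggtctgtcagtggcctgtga
Cdkn3: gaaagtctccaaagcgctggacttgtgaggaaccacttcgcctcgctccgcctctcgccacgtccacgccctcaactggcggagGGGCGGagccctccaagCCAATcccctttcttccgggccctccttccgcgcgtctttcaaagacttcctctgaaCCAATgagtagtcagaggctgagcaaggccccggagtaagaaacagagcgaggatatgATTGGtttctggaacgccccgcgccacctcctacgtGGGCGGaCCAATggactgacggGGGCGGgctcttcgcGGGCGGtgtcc

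The Ercc6 and Ripk3 windows each hold 1 GC box, with 22 and 10 CpG dinucleotides. The Selenok window holds 1 GC box, 1 CCAAT box and 1 AP-1 site, and the Cdkn3 window 4 GC boxes and 4 CCAAT boxes. Of the 357 genes 269 matched the RefSeq table, with 347 promoters, of which 60.8% hold a GC box, 36.6% a CCAAT box, 7.78% a TATA box and 5.19% an AP-1 site. Over all 32851 promoters of the table, which include genes not expressed here, these shares are 35.7%, 37.4%, 13.6% and 7.81%. Of the 17 promoters of the 15 matched genes that PMA moved in either line, 3 hold an AP-1 site, those of Selenok, Exoc5 and Zfhx2. The 8 promoters of 5 matched genes that lay at or below 0 in both line comparisons hold a GC box in 5 cases and no AP-1 or TATA match.

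In each of the 6 knockout-labelled libraries the middle gene of chromosome 14 was higher than in each of the 6 HPg libraries. When each gene was set relative to its mean in untreated HPg cells, the median over the 357 genes was -0.01, 0.01 and 0.01 on the log2 scale in the 3 HPg libraries and 0.06, 0.06 and 0.02 in the 3 HPg_p libraries. It was 0.27, 0.34 and 0.29 in the R libraries and 0.30, 0.31 and 0.33 in the R_p libraries. The HPg and knockout-labelled libraries thus did not overlap, and within a line the libraries with and without PMA differed by less than the lines did.

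**Figure D1:**
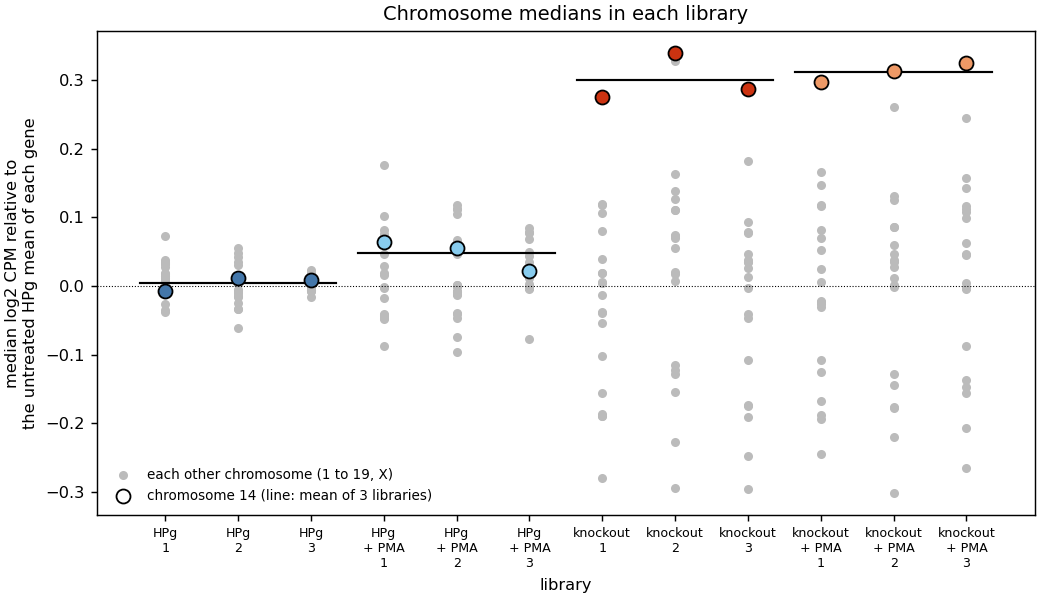
Median log2 CPM of each chromosome in each of the 12 libraries, relative to the untreated HPg mean of each gene; large circles are chromosome 14, grey points the other chromosomes, and horizontal lines the mean of the 3 libraries of a group. Chromosome 14 lies between -0.01 and 0.06 in the HPg line and between 0.27 and 0.34 in the knockout-labelled line.

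Without PMA the median log2 fold change of R against HPg over the 357 genes was 0.29, a 1.22-fold higher level, with quartiles of 0.18 and 0.41. Over the 9978 protein-coding genes of the other autosomes at the same level of expression it was -0.03. Of the chromosome 14 genes 346 (96.9%) lay above 0, against 51.3% of all 16630 genes tested and 44.1% of the other-autosome genes. Between 0.1 and 0.5, a window around their own median, lay 263 genes (73.7%). The interquartile range was 0.22, against 0.31 over the other-autosome genes. With PMA the median of R_p against HPg_p was 0.25, or 1.19-fold, with quartiles of 0.09 and 0.43. The spread was wider, with 199 genes (55.7%) between 0.1 and 0.5. Its interquartile range was 0.34, against 0.38 over the other-autosome genes. Here 305 genes (85.4%) lay above 0, against 51.3% of all genes and 45.0% of other-autosome genes. In both comparisons 302 genes (84.6%) were above 0, against 36.3% of all genes, and 8 (2.24%) were at or below 0, against 33.8%.

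Most genes moved by too little to be called one at a time. The median standard error of a gene's difference was 0.16 in each comparison, and edgeR's quasi-likelihood test with Benjamini-Hochberg adjustment over all genes called 13 chromosome 14 genes higher and 0 lower without PMA, where 0.806% of all genes were called higher and 0.511% lower. At an unadjusted p under 0.05 the counts were 134 higher and 0 lower, against 1306 and 1078 of all 16630 genes tested. With PMA 23 were called higher and 0 lower (1.29% and 1.18% of all genes). The 23 include Ripk3 and Zic2, which met the limit of 2 CPM only through the knockout-labelled libraries. Their calls are no support for the shift. At an unadjusted p under 0.05 the counts with PMA were 125 and 3, against 1519 and 1545 of all 16630 genes. With the replicate number as a block, 134 were higher and 0 lower without PMA (7.08% and 5.44% of all genes), and 140 higher and 3 lower with it (9.49% and 9.09%). The 3 called lower in that fit were Esco2, a cohesin acetyltransferase, Klf5 and Gpc6. The counts rested on single libraries: 4 without HPg library 3 or without R library 3 and 15 without HPg library 2 in the untreated comparison, and 2 without HPg_p library 3 to 25 without HPg library 2 with PMA. All genes called in either direction were 49, 46 and 329 in those untreated fits, and 60 and 568 in those with PMA. DESeq2 called 43 and 54 higher, where it called 775 and 1184 of all genes in either direction.

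Counting genes whose libraries did not overlap gave a similar picture without a model. In 138 genes all 3 R libraries were above all 3 HPg libraries and in 0 genes below, against 9.57% and 8.95% of all genes. With PMA the counts were 141 higher and 2 lower (Sh3bp5 and Sdr39u1), against 12.5% and 12.4%. In 83 genes the knockout-labelled libraries were higher without overlap both with and without PMA, against 4.90% of all genes, and 0 were lower in both, against 4.36%. Over the expressed genes of the other autosomes, 7.03% were higher without overlap in the untreated comparison, 10.4% in the PMA comparison and 3.91% in both. In the pairs of libraries with the same replicate number, 204 genes were higher in the knockout-labelled library of all 6 pairs and 5 in none, namely Sh3bp5, Sdr39u1, Gata4, Tbc1d4 and Gpc6. The share of all genes with such pairs is not given here, so these counts are not set against a background. The median over the genes was 0.29, 0.33 and 0.29 in the 3 pairs without PMA and 0.22, 0.25 and 0.28 in the 3 pairs with PMA.

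Of the 20 chromosomes (1 to 19 and X), 14 had the highest median in both comparisons. The next was chromosome 12 without PMA (0.20, 364 genes) and chromosome 15 with PMA (0.15, 431 genes), and the lowest was chromosome 10 (-0.30 and -0.29, 532 genes). All of these values are relative, since the scaling sets a common baseline over the genes. The difference between the median of chromosome 14 and that of the other autosomes was 0.32 without PMA and 0.29 with it, and it stayed within 0.31 to 0.33 and 0.28 to 0.32 over 24 processing settings. A scaling moves both medians together, so the scaling settings could hardly change this difference. Some fits without 1 library also left out a library that is not in the comparison. The narrow range is therefore not a test of the shift.

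**Figure D2:**
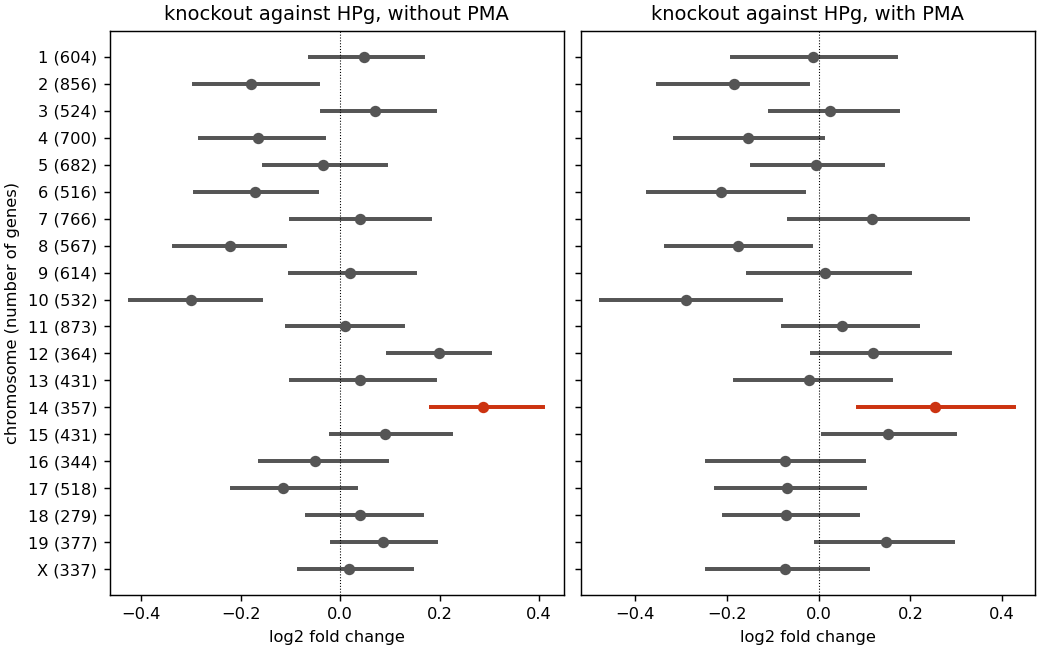
Median (point) and interquartile range (bar) of the log2 fold change of the knockout-labelled line against HPg for protein-coding genes of mean CPM at least 2 on each chromosome, without PMA (left) and with PMA (right), with the number of genes in parentheses. Chromosome 14, in red, has the highest median in both panels, 0.29 and 0.25.

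The higher level ran along the whole chromosome. In gene order, each of the 18 groups of 20 neighbouring genes (17 in the last) had a median above 0 without PMA, from 0.11 to 0.40, and with PMA, from 0.04 to 0.47. The same held for all 36 groups of 10 (0.09 to 0.43, and 0.00 to 0.50) and all 9 groups of 40 (0.20 to 0.35, and 0.18 to 0.36), although without HPg_p library 3 the groups of 20 above 0 with PMA were 17. No more than 2 neighbouring genes in a row were at or below 0 without PMA and no more than 3 with PMA. The lowest group without PMA ran from Oxa1l to Thtpa, with a median GC content of 54.8%, and 19 of its 20 genes were above 0. The highest ran from Parg to Ddhd1 (0.40).

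With PMA the profile along the chromosome was less even. The group from Ap1g2 to Nfatc4, which holds the proteasome activator and interferon-response genes Psme1, Psme2 and Irf9, had the highest median (0.47) and all 20 genes above 0. The group from Mzt1 to Abcc4 had the lowest (0.04), with 11 of 20 above 0, and it holds Klf5, Tbc1d4, Gpc6 and Abcc4. With GC content and transcript length corrected for, these 2 medians were 0.41 and 0.18, and all 18 groups ranged from 0.08 to 0.41. The lowest group with PMA was then Oxa1l to Thtpa, at 0.20 before the correction and 0.08 after it. Without PMA the corrected range was 0.14 to 0.37.

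**Figure D3:**
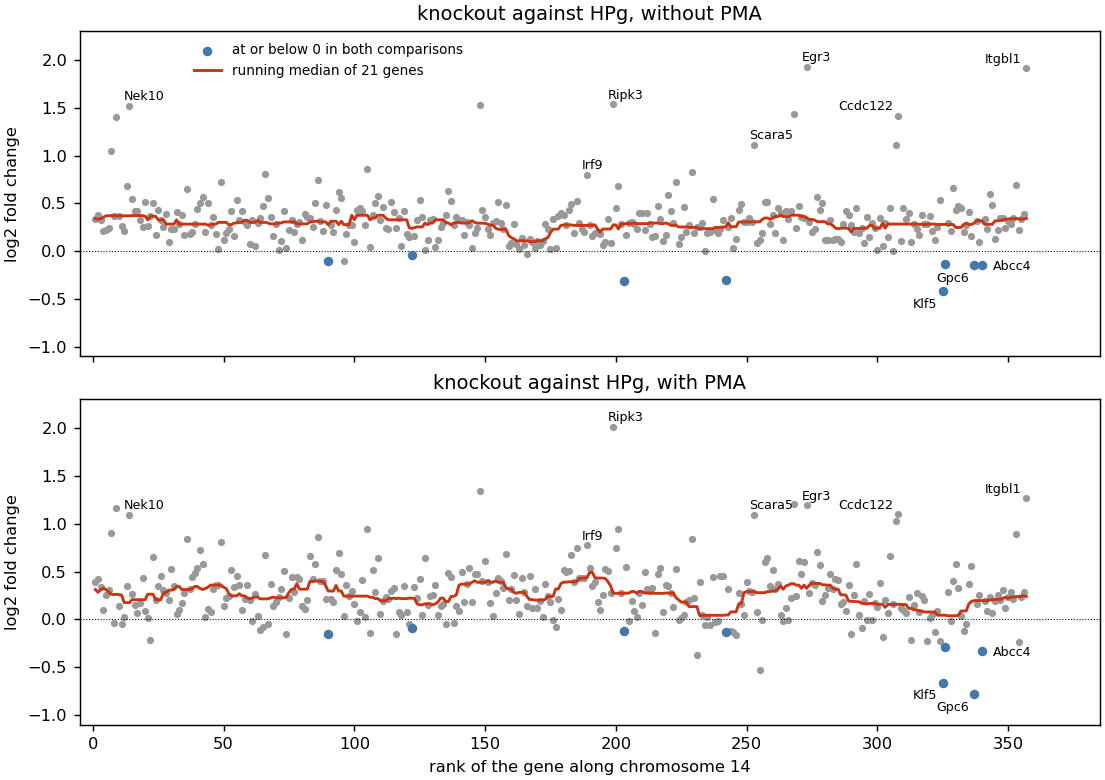
Log2 fold change of the knockout-labelled line against HPg for each of the 357 genes by its rank along chromosome 14, without PMA (top) and with PMA (bottom); the red line is the running median of 21 genes and blue points are the 8 genes at or below 0 in both comparisons. The running median stays above 0 throughout, at 0.10 to 0.38 without PMA and 0.04 to 0.49 with PMA.

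Gene span went with the size of the difference in the same way on chromosome 14 and elsewhere. When the genes were put into 4 groups of equal size by span (first to last base of the gene), the median with PMA was 0.37 in the shortest group and 0.28, 0.21 and 0.12 in the next ones. Over the other autosomes the medians in the same span ranges went from 0.06 to -0.17. Without PMA the order was opposite, from 0.23 in the shortest to 0.36 in the longest group, and from -0.08 to 0.04 on the other autosomes. The difference between chromosome 14 and the other autosomes was therefore nearly constant over span, 0.31 to 0.32 without PMA and 0.28 to 0.31 with it. Over 4 groups by GC content it was 0.29 to 0.36 and 0.30 to 0.35, over transcript length 0.30 to 0.32 and 0.27 to 0.33, and over expression level 0.27 to 0.38 and 0.26 to 0.32. From the lowest to the highest GC group it went from 0.29 to 0.36 without PMA and from 0.35 to 0.30 with PMA. The 207 genes that overlap another annotated gene and the 150 that do not differed little, at 0.32 for both without PMA. The 52 genes at or below 0 with PMA had a median span of 73116 bases against 24939 for the others, and 44 of the 52 were above 0 without PMA.

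The 5 genes whose average over both line comparisons was nearest the median of such averages (0.26) show how small the difference was against the spread of the cultures, although a single comparison of such a gene can lie far from its own median. Mrpl57 (ENSMUSG00000021967), a protein of the mitochondrial ribosome, was at 24.7, 17.1 and 21.6 CPM in HPg, 26.4, 20.5 and 24.3 in R, 18.9, 21 and 21.1 in HPg_p and 24.9, 26.2 and 27.4 CPM in R_p. Its libraries overlapped without PMA and did not with PMA, yet neither difference passed (0.17, SE 0.14, and 0.37, SE 0.14, adjusted p = 0.195, and 0.0491 with the replicate block). Ercc6 (ENSMUSG00000054051) was at 41.0, 63.7 and 55.9 CPM in HPg and 55.0, 91.6 and 72.5 CPM in R, and at 56.3, 53.8 and 57.0 CPM in HPg_p and 49.0, 66.3 and 61.0 CPM in R_p. In each pair of the same number the R library was higher without PMA, although the groups overlapped (0.45, SE 0.20, adjusted p = 0.312, and 0.0303 with the block). With PMA its difference was 0.08 (SE 0.19, adjusted p = 0.888) and turned to -0.02 without R_p library 2. The others were Slmap, a membrane-anchored scaffold protein (0.42 and 0.10), Dennd6a, an activator of a Rab GTPase of endosomes (0.30 and 0.22), and Dph3, a factor of diphthamide synthesis (0.18 and 0.36). None of the 3 passed in either comparison, while with the block Slmap (adjusted p = 0.0283) and Dennd6a (0.0487) passed without PMA.

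The genes furthest above the chromosome's shift included a death kinase, secreted proteins and 2 neighbouring genes. Ripk3 (ENSMUSG00000022221) was at 1.4, 0.69 and 1.12 CPM in HPg, 4.11, 1.68 and 3.51 CPM in R, 1.36, 0.57 and 0.95 CPM in HPg_p and 4.79, 2.62 and 4.23 CPM in R_p. Its mean was 1.01 CPM over the 6 HPg-line libraries, so it met the limit of 2 CPM only through the knockout-labelled libraries where it was high. The same held for Lacc1, Zic2 and Emc9, and the differences of these genes and of Ripk3 are no support for the shift. For Ripk3 all knockout-labelled libraries lay above all HPg libraries, and the libraries numbered 2 were the lowest of each group. Its log2 fold change was 2.02 with PMA (SE 0.42, adjusted p = 0.0291) and 1.54 without it (SE 0.41, adjusted p = 0.1, and 0.000158 with the block). It was called with PMA in 6 of the 12 fits that left out 1 library.

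Itgbl1 (ENSMUSG00000032925), a secreted protein with integrin-beta-like repeats and the last expressed gene of the chromosome, was at 5.50, 9.02 and 8.74 CPM in HPg and 21.3, 30.5 and 35.9 CPM in R. With PMA it was at 7.02, 9.14 and 7.10 CPM in HPg_p and 15.9, 15.6 and 24.4 CPM in R_p. The lines did not overlap in either condition, and both differences passed (1.91, SE 0.25, adjusted p = 0.00364, and 1.27, SE 0.25, adjusted p = 0.0239). Scara5 (ENSMUSG00000022032), a scavenger receptor that takes up ferritin, was at 35.2, 51.3 and 30.3 CPM in HPg and 78.3, 93.8 and 80.2 CPM in R. It kept these levels with PMA, at 34.9, 52.4 and 29.7 CPM in HPg_p and 78.0, 93.1 and 78.6 CPM in R_p. The lowest knockout-labelled library was thus well above the highest HPg library (1.11 and 1.09, SE 0.22 each, adjusted p = 0.0302 and 0.0277).

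Ccdc122 and Lacc1 lie next to each other in opposite directions. Ccdc122 (ENSMUSG00000034795), a coiled-coil protein, was at 1.92, 2.01 and 2.06 CPM in HPg and 5.50, 4.90 and 5.61 CPM in R, and at 2.43, 2.18 and 1.71 CPM in HPg_p and 4.74, 4.03 and 4.79 CPM in R_p. Groups of a line were close together and the lines far apart (1.42 and 1.10, SE 0.18 each, adjusted p = 0.00276 and 0.00958). Lacc1 (ENSMUSG00000044350), an enzyme of purine metabolism best known from macrophages, differed by 1.11 and 1.03 without overlap between the lines and did not pass (adjusted p = 0.0813 and 0.0673, and 0.00464 and 0.00421 with the block). Each overlaps another annotated gene, and no source used here states if strand was used in counting, so how their reads divide is uncertain.

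Nek10 (ENSMUSG00000042567), a kinase of the NIMA family, was at 2.40, 3.51 and 2.68 CPM in HPg and 7.38, 9.19 and 8.06 CPM in R, without overlap. It was called in both comparisons (1.52, SE 0.19, adjusted p = 0.00276, and 1.09, SE 0.19, adjusted p = 0.013). The secreted ribonuclease Rnase4 (1.53 and 1.35), the secreted glycoprotein hormone Stc1 (1.44 and 1.21) and the peroxisomal oxidase Acox2 (1.04 and 0.90) had no overlap between lines either, yet passed only with the block (adjusted p = 0.000367, 0.000145 and 0.000482 without PMA). Irf9 (ENSMUSG00000002325), the DNA-binding subunit of the interferon-activated factor, was at 9.94, 12.7 and 13.0 CPM in HPg and 21.5, 19 and 21.6 CPM in R (0.80 and, with PMA, 0.78, SE 0.15 each, adjusted p = 0.0225 and 0.0203).

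Of the 13 genes called without PMA, 10 were also called with it: Nek10, Fut11, Irf9, Spata13, Scara5, Egr3, Pdlim2, Ccdc122, Itgbl1 and 1 clone-named gene. The share of all genes called in both comparisons is not given here. These comparisons share no library but share the lines, the replicate numbers and one fit, so the overlap is no independent support. Across the 357 genes their differences correlated with Pearson's r = 0.70 and Spearman's rho = 0.44, which is a description over genes that are not independent. Nek10, Ccdc122, Itgbl1 and the clone-named gene stayed called without PMA in each of the 12 fits that left out 1 library, and with PMA the clone-named gene alone did. Irf9 was called in 8 of the 12 in each comparison, Scara5 in 6 and 7, Spata13 in 10 and 11, and Egr3 in 3 and 8. Fut11 was called in 0 of the 12 without PMA and 9 with PMA, and Pdlim2 in 3 and 9.

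When each gene was set against the median of its own chromosome in each library, 4 genes were called higher than chromosome 14 without PMA and 4 with PMA (0.619% and 0.884% of all genes). Nek10, Ccdc122 and the clone-named gene were called in both comparisons (0.487% of all genes), Itgbl1 without PMA and Spata13, an exchange factor for Rac and Cdc42, with PMA. The excess over the chromosome was 1.22 and 0.85 for Nek10, 1.12 and 0.86 for Ccdc122, 1.61 without PMA for Itgbl1 (adjusted p = 0.011) and 0.59 with PMA for Spata13 (adjusted p = 0.0481).

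Few genes, 8 in all, were at or below 0 in both comparisons, in place of the 33.8% of all genes with such values. None of the 8 was called lower between the lines in the fit of all libraries without the block. A value near 0 does not by itself show that a gene escaped the shift, since the median standard error was 0.16. With the block, Klf5 and Gpc6 were called lower with PMA, and without HPg_p library 2 the number of genes called lower with PMA was 1. Without R library 2 the count at or below 0 in both was 18. Against their own chromosome, no gene was called lower without PMA and 1, Abcc4, was with PMA, where 0.229% and 0.373% of all genes were called lower. None was called lower in both comparisons (0.180% of all genes). With the replicate block 6 genes were called lower than the chromosome without PMA and 24 with PMA, and Sh3bp5, Klf5, Tbc1d4 and Abcc4 were called in both. The share of all genes called lower in that fit is not given here. In the line comparisons not set against a chromosome, the block took the number of all genes called from 219 to 2083 without PMA. With PMA it took that number from 411 to 3090. In the fit without the block, leaving out any library other than HPg library 2 or HPg_p library 2 ended the call of Abcc4. Without HPg_p library 2 the genes called lower than the chromosome in either comparison were 2.

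Abcc4 (ENSMUSG00000032849), an exporter of cyclic nucleotides and other organic anions, was at 50.5, 47.8 and 53.3 CPM in HPg and 42.8, 49.0 and 45.4 CPM in R. With PMA it was at 52.4, 37.8 and 49.6 CPM in HPg_p and 34.7, 37.4 and 39.1 CPM in R_p. The groups overlapped in both conditions, with differences of -0.14 and -0.33 (adjusted p = 0.685 and 0.192). Relative to the chromosome median it was lower by -0.45 without PMA (SE 0.12, adjusted p = 0.135, and 0.0215 with the block) and by -0.58 with PMA (SE 0.12, adjusted p = 0.0414). With GC content and length corrected for, the value with PMA was -0.61 and was no longer called (adjusted p = 0.0583).

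Klf5 (ENSMUSG00000005148), a zinc finger transcription factor of proliferating cells, was at 5.81, 4.0 and 5.64 CPM in HPg and 3.14, 4.22 and 4.20 CPM in R, and at 13.0, 7.09 and 12.9 CPM in HPg_p and 7.23, 6.56 and 7.03 CPM in R_p. HPg_p library 2 was close to the R_p libraries and the other 2 HPg_p libraries were higher. The differences were -0.42 (SE 0.24, adjusted p = 0.462) and -0.66 (SE 0.24, adjusted p = 0.157, and 0.0348 with the block). Gpc6 (ENSMUSG00000058571), a glypican of the cell surface, varied most between cultures, with 52.2, 254 and 119 CPM in HPg, 49.7, 224 and 110 CPM in R, 114, 223 and 119 CPM in HPg_p and 37.0, 148 and 79.5 CPM in R_p. Library 2 was the highest in each group, and each knockout-labelled library was below the HPg library of the same number. The difference was -0.78 with PMA (SE 0.65, adjusted p = 0.568, and 0.00837 with the block) and -0.15 without PMA, and without HPg library 2 its value against the chromosome turned from -0.46 to 0.26.

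Tbc1d4, a Rab GTPase-activating protein of glucose transporter traffic, lies next to Klf5 and was at 15.6, 20 and 19 CPM in HPg and 15, 17.6 and 17.2 CPM in R. With PMA it was at 16.2, 13.8 and 17.3 CPM in HPg_p and 11.8, 12.1 and 14.8 CPM in R_p. The groups overlapped (-0.13 and -0.29), and its value against the chromosome was -0.43 and -0.54, called with the block (adjusted p = 0.0327 and 0.00759). Sh3bp5, an exchange factor for Rab11, had -0.11 and -0.16 and was -0.41 below the chromosome in each comparison (adjusted p = 0.0318 and 0.0238 with the block). Gata4, a transcription factor of heart and endoderm, was low throughout at 2.57 to 4.48 CPM (-0.30 and -0.13), and Sdr39u1 at 4.62 to 7.59 CPM (-0.31 and -0.12). Cdkn3, at 12.1 to 18.5 CPM, was nearest 0 (-0.03 and -0.08), and with GC content and length corrected for it was at 0.00 and 0.02 while the other 7 stayed below 0. Without PMA alone, Galnt15 (-0.10), Haus4 (-0.03) and Serp2 (0.00) were the only others not above 0.

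**Figure D4:**
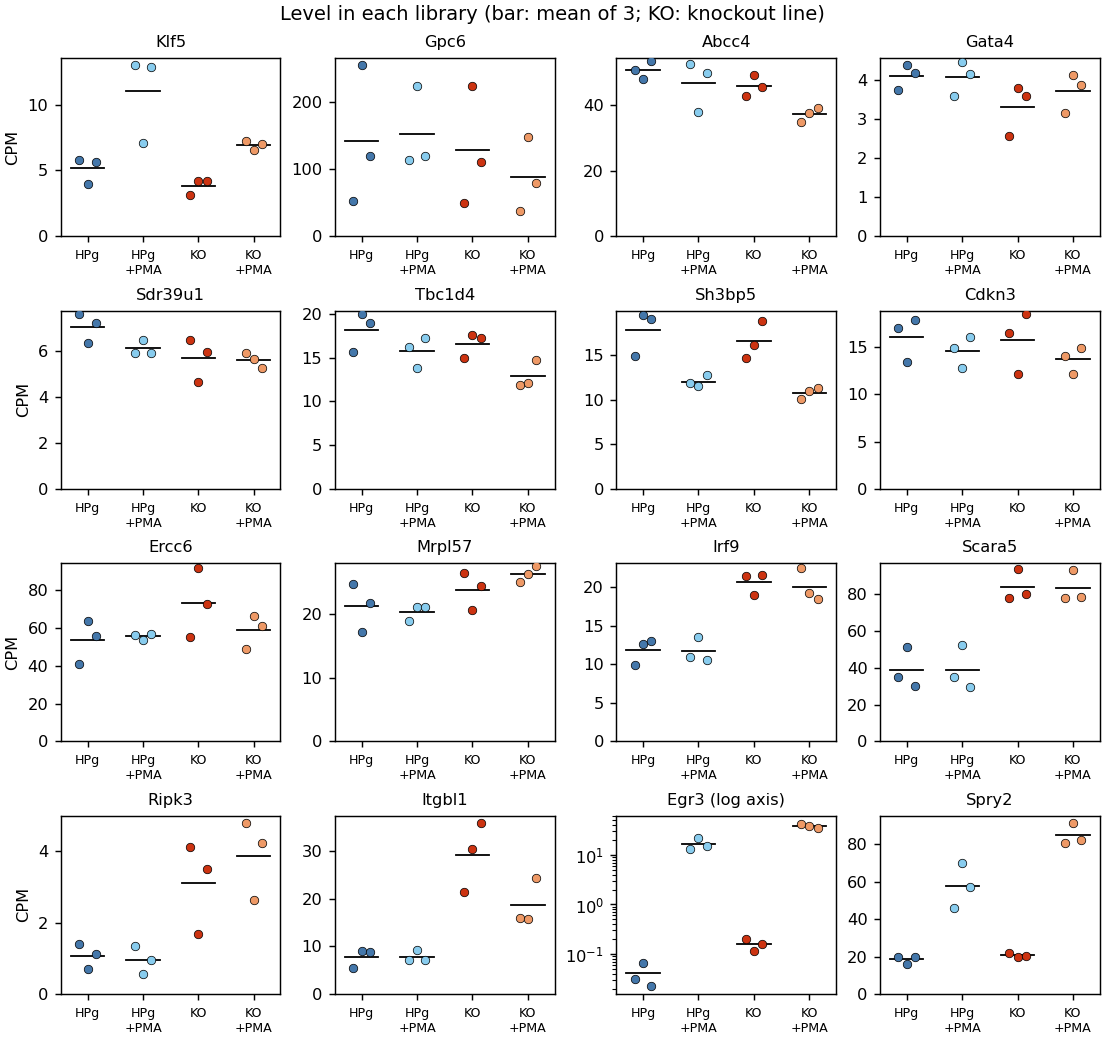
Level in CPM in each library (points) with the mean of 3 (bar) for the 8 genes at or below 0 in both comparisons, 2 typical genes, 4 of the genes higher in the knockout-labelled line (KO) and the PMA-responsive Egr3 (log axis) and Spry2. Irf9, Scara5, Ripk3 and Itgbl1 show no overlap between the lines, whereas the first 8 genes overlap or lie lower in the knockout-labelled line.

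Lists of chromosome 14 genes by role are read against the whole set, whose medians were 0.29 without PMA and 0.25 with it; single values are without PMA unless stated, and a gene that passed did so without the block unless stated. Of 15 proteasome and ubiquitin genes 15 were above 0 without PMA and 14 with PMA (medians 0.25 and 0.32), and 1 was called higher without PMA and 0 with PMA, or 7 and 7 with the block. Psmb5, a catalytic proteasome subunit, was at 0.03, Mycbp2, a ubiquitin ligase, at 0.46 (adjusted p = 0.0366 with the block), and the histone deubiquitinase Bap1 at 0.22, and none of these passed without it. Of 9 expressed immune signalling and cell death genes of 15 listed, 9 and 9 were above 0 (0.38 and 0.37), with Irf9 called in both comparisons, and Ripk3 and Nfatc4, a calcium-responsive factor (0.74, adjusted p = 0.0261), called with PMA (6 and 6 genes with the block). Lgals3, a galectin, was at 0.05, and Bnip3l, a mitophagy receptor, at 0.45, and neither passed without the block (0.00292 with it for Bnip3l). Nfatc4 stayed called in 7 of the 12 fits without 1 library. Ripk3 met the limit of 2 CPM only through the knockout-labelled libraries, so its call is no support for the shift.

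All 16 chromatin genes were above 0 without PMA and 14 with PMA (0.30 and 0.15), and Sap18, of a histone deacetylase complex, passed with PMA (0.54, adjusted p = 0.0296, in 6 of 12 fits without 1 library). The topoisomerase Top2b was at 0.43, the remodeller subunit Pbrm1 at 0.39 and the coactivator Zmiz1 at 0.42 without PMA, none of which passed. With the block these had adjusted p = 0.0383, 0.028 and 0.015, and 7 and 6 genes of the list passed. Of 9 expressed transcription factor genes of 18 listed, 7 were above 0 in each comparison (0.45 and 0.30), Klf5 and Gata4 being the exceptions. Egr3 was called in both comparisons, and Tsc22d1, a leucine zipper protein (0.67, adjusted p = 0.028), and the zinc finger factor Zic2 (0.89, adjusted p = 0.0493) with PMA, in 6 and 1 of the 12 fits without 1 library. Zic2 met the limit of 2 CPM only through the knockout-labelled libraries, so its call is no support for the shift. The nuclear receptor Nr1d2 was at 0.33 and the homeobox gene Hmbox1 at 0.50 without PMA, and neither passed without the block (adjusted p = 0.0222 and 0.00789 with it). With the block 6 genes were higher without PMA, and 4 higher and 1 lower with PMA.

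RNA processing genes were 14 of 14 above 0 without PMA and 10 with PMA (0.23 and 0.06), with the splicing regulator Mbnl2 at 0.49 (adjusted p = 0.0431 with the block) and Hnrnpc at 0.17. None of the list passed without the block, and 1 and 2 with it. Translation and ribosome biogenesis genes were 14 of 14 and 13 (0.25 and 0.22), with Rps24 at 0.23, Tpt1 at 0.35 and the importin Ipo5 at 0.22, none of which passed. The importin Ipo4 passed with PMA (0.54, adjusted p = 0.0233, in 8 of 12 fits without 1 library), and with the block 3 genes passed in each comparison. Metabolic and mitochondrial genes were 16 of 16 and 14 (0.21 and 0.23), with Glud1, glutamate dehydrogenase, at 0.38, adenosine kinase Adk at 0.51, the gluconeogenic enzyme Pck2 at 0.49 and transketolase Tkt at 0.02. None passed without the block, and with it 3 and 5 did, Glud1, Adk and Pck2 (adjusted p = 0.0203, 0.0135 and 0.013) without PMA. Secretory pathway and lysosome genes were 14 of 15 and 13 (0.24 and 0.35), with the protease Ctsb at 0.24, the annexin Anxa7 at 0.23 and the small GTPase Arf4 at 0.28, none of which passed without the block (Arf4 0.0415 with it). In this list 0 genes passed without PMA and 1 with PMA, or 4 and 9 with the block.

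The lists were drawn up with earlier line results of these data known, so the order of their medians is a description only. Matrix, protease and adhesion genes had the highest medians of the lists, 0.51 and 0.60, with 10 of 11 expressed genes above 0 in each comparison. Itgbl1 and Scara5 passed in both, while the basement membrane protein Nid2 (0.51) and Scara3 (0.52) did so only with the block (adjusted p = 0.00367 and 0.00869 without PMA), and the collagenase Mmp14 was at 0.03. With the block 6 genes were higher without PMA, and 8 higher and 1 lower with PMA. Cytoskeleton genes were 14 of 14 and 12 (0.42 and 0.30), with vinculin, Vcl, at 0.56 and Lmo7 at 0.66, which passed only with the block (adjusted p = 0.00429 and 0.00077). With the block 9 and 8 genes of the list passed. Pdlim2 passed in both comparisons (0.56, adjusted p = 0.0402, and 0.70, adjusted p = 0.0126). Growth factor, receptor and feedback genes were 9 of 9 and 7 (0.33 and 0.35), with the bone morphogenetic protein receptor Bmpr1a at 0.51 (adjusted p = 0.00648 with the block). None passed without the block, and 4 and 5 with it. Cell cycle and mitosis genes had the lowest medians, 0.12 and 0.04, with 12 and 8 of 14 above 0. In that list Dlgap5, a spindle protein, was at 0.12, Cdca2 at 0.12, the repair nuclease Apex1 at 0.03 and the kinase Lats2 at 0.47 (adjusted p = 0.0232 with the block). None passed without the block, and with it 1 was higher in each comparison and 1 lower with PMA. No gene of any list was called lower in a line comparison without the block, and with the block Klf5, Gpc6 and Esco2, of the transcription factor, matrix and cell cycle lists, were called lower with PMA.

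PMA for 30 min did not move chromosome 14 as a whole in either line. The median log2 fold change over the 357 genes was 0.02 in HPg cells, with 190 genes (53.2%) above 0 against 47.2% of all genes. It was -0.01 in knockout-labelled cells, with 171 genes (47.9%) above 0 against 47.7%. In HPg cells 16 genes (4.48%) rose and 2 (0.560%) fell, against 2.53% and 0.920% of all genes. In knockout-labelled cells 12 (3.36%) rose and 4 (1.12%) fell, against 2.81% and 1.63%. The libraries did not overlap, with PMA higher, in 73 genes in HPg (12.3% of all genes) and 42 in the other line (10.6%), and, with PMA lower, in 31 (10.3%) and 36 (11.3%). With the replicate block the counts called were 54 and 20 in HPg (8.62% and 6.19% of all genes) and 36 and 32 in the knockout-labelled line (6.79% and 6.56%). Leaving out 1 library gave 6 (without HPg_p library 3) to 22 genes in HPg and 7 (without R_p library 3) to 18 in the knockout-labelled line. The shares of all genes in these fits are not given here. Of the genes that rose 10 were shared, 62.5% of those in HPg and 83.3% of those in knockout-labelled cells, 2 fell in both, and 0 were called in opposite directions.

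The early growth-response gene Egr3 (ENSMUSG00000033730), a zinc finger transcription factor, had the largest fold change with PMA of the 357 genes. It had 4, 8 and 3 reads in the HPg libraries and 22, 16 and 22 reads in the R libraries, which is 0.0316, 0.0671 and 0.0228 CPM and 0.197, 0.115 and 0.157 CPM. With PMA it reached 13.1, 22.1 and 15 CPM in HPg_p and 42.4, 38.0 and 34.6 CPM in R_p. It met the limit of 2 CPM only through the PMA libraries, as did Gch1 and, at 1.97 CPM without PMA, Lacc1. Every PMA library was above every untreated one, and the lines did not overlap in either condition. The increase was 8.68 on the log2 scale in HPg (SE 0.35, adjusted p = 4.61e-08) and 7.95 in knockout-labelled cells (SE 0.31, adjusted p = 3.48e-08). The line difference was 1.93 without PMA, where it rests on few reads (adjusted p = 0.0428), and 1.2 with PMA (adjusted p = 0.0182).

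Spry2 (ENSMUSG00000022114), a feedback inhibitor of receptor tyrosine kinase signalling, was at 19.6, 16.2 and 19.5 CPM in HPg and 45.7, 70.1 and 57.3 CPM in HPg_p, a rise of 1.65 (SE 0.15, adjusted p = 7.69e-05). In the knockout-labelled line it went from 21.7, 20 and 20.2 CPM to 80.5, 91.5 and 82.2 CPM, a rise of 2.04 (SE 0.15, adjusted p = 8.24e-06). The R libraries lay just above the HPg libraries without PMA (0.16, not called), and with PMA every R_p library was above every HPg_p library (0.55, adjusted p = 0.0671, and 0.0107 with the block). Gch1 (ENSMUSG00000037580), the entry enzyme of tetrahydrobiopterin synthesis, had a like pattern. It was at 1.02, 1.42 and 1.02 CPM in HPg and 3.67, 6.48 and 6.08 CPM in HPg_p (2.23, adjusted p = 0.000521), and at 1.16, 1.22 and 1.12 CPM in R and 6.19, 9.46 and 9.62 CPM in R_p (2.85, adjusted p = 5.15e-05). Without PMA its line difference was 0.02, and with PMA 0.64 (adjusted p = 0.191, and 0.0191 with the block).

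Smaller responses, under 1 log2 unit, were called in both lines. Polr3d, a subunit of RNA polymerase III, was at 21.1 to 21.7 CPM in HPg and 35.2 to 39.7 CPM in HPg_p, and at 22.4 to 23.7 CPM in R and 43.0 to 49.8 CPM in R_p, with no overlap within a line. It rose by 0.78 in HPg (adjusted p = 0.000963) and 0.99 in the knockout-labelled line (adjusted p = 9.73e-05). Gnl3, or nucleostemin, rose by 0.89 and 0.91 (adjusted p = 0.00963 and 0.00645). Tnfrsf10b, a receptor for the death ligand TRAIL, rose by 0.63 and 0.75, the lipase Ddhd1 by 0.77 and 0.66, the phosphatase subunit Ankrd28 by 0.63 and 0.54 and Selenok by 0.61 and 0.63, each called in both lines.

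Other genes were called in 1 line only, which does not show that the lines differ. Klf5 rose by 1.09 in HPg (adjusted p = 0.0274), with 0.85 in the knockout-labelled line (adjusted p = 0.0674, and 0.0115 with the block). Ints6, an Integrator subunit, rose in HPg (0.66) and had 0.41 in the other line (adjusted p = 0.118, and 0.00756 with the block), and Exoc5, of the exocyst, rose in HPg (0.63) and had 0.31. Pip4p1, a phosphoinositide phosphatase, rose in knockout-labelled cells (0.57) and had 0.29 in HPg, and the urokinase gene Plau rose there (0.97, adjusted p = 0.0355) and had 0.76 in HPg (adjusted p = 0.104, and 0.000203 with the block). Among genes that fell, Sh3bp5 dropped from 14.9, 19.5 and 19 CPM to 11.8, 11.5 and 12.7 CPM in HPg and from 14.6, 16.2 and 18.8 CPM to 10.1, 10.9 and 11.3 CPM in the knockout-labelled line. Its PMA and untreated libraries did not overlap in either line (-0.57 and -0.62, adjusted p = 0.0451 and 0.0259). The zinc finger homeobox gene Zfhx2 (-1.01) and the Integrator subunit Ints9 (-0.73) fell in knockout-labelled cells and had -0.71 and -0.47 in HPg (adjusted p = 0.0174 and 0.0312 with the block).

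The test of the difference itself, the interaction of line and PMA, called 0 of the 357 genes and 0 genes in all with edgeR's quasi-likelihood test, and 0 with the block. At an unadjusted p under 0.05, 0 were higher and 3 lower, against 88 and 240 of all 16630 genes. Among the 3 were Parg, an enzyme that degrades poly(ADP-ribose), at -0.44 and Pibf1, a protein of the centrosome, at -0.76. The median interaction over chromosome 14 was -0.03.

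**Figure D5:**
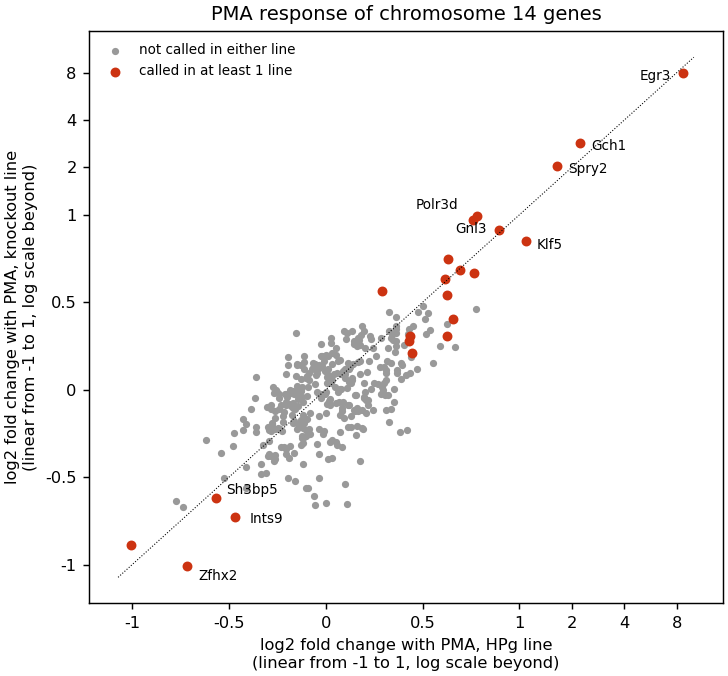
Log2 fold change with PMA in the HPg line (x axis) against that in the knockout-labelled line (y axis) for the 357 genes, linear between -1 and 1 and on a log scale beyond; red points were called in at least 1 line and the dotted line marks equal response. Egr3 lies at 8.68 and 7.95, and Spry2 and Gch1 lie between 1.65 and 2.85.

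Genes of chromosome 14 outside the chosen genes gave mixed values. The 101 tested protein-coding genes under 2 CPM had medians of 0.58 and 0.50, with 79 and 77 above 0 and 4 and 5 called higher. Like values for genes under 2 CPM on other chromosomes are not given here. These medians are therefore not read as a larger difference on chromosome 14. The 9 genes of other classes at 2 CPM or more had medians of 0.15 and 0.30, with 6 and 7 above 0. Among them were Rpph1, the RNA of ribonuclease P, which was by far the most abundant at a mean of 74292 CPM (-0.03 and 0.45, adjusted p = 0.986 and 0.562), and Mir17hg, the host transcript of a microRNA cluster (0.15 and 0.02). At the threshold itself, Lacc1 (2.01 CPM) and Emc9 (2.06 CPM, 0.29 and 0.43) were just inside, and a clone-named gene (1.94 CPM, 0.45 and 0.53) was just outside.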

How the data were processed

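RNA from 12 libraries was used, 3 in each of 4 groups. The deposited table holds unnormalized counts by gene, and its values are whole numbers. STAR 2.5.0a, cutadapt 1.11, Subread and featureCounts 1.4.6-p3 are named with build mm9 in the submitters' processing notes. Which annotation was counted, how strand was treated, and if pairs were counted once is not stated there, so the 207 genes that overlap another annotated gene are uncertain. Per the labels' protocols, ribosomal RNA was depleted and libraries were directional. GENCODE M21 gave symbols, class, chromosome and gene order. It is of another build than the counts, so only promoter coordinates (GRCm38.p6) are printed.

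Genes were filtered with filterByExpr (minimum count 10, minimum total 15), which kept 16630. All 12 libraries entered one edgeR 4.0.16 quasi-likelihood fit (R 4.3.3, TMM factors, robust), with Benjamini-Hochberg adjustment over all genes and a threshold of 0.05. CPM values are TMM-scaled, and the 2 CPM rule used column totals. An exact permutation test of 3 libraries against 3 reaches 0.1 at the lowest and was not used. For the test against the own chromosome, each chromosome's median deviation in log2 CPM per library (prior count 2, from the gene means) was added to the offset. The scripts were tested on simulated data. Replicates differed by more than counting noise (chi-square per degree of freedom 104.1 to 689.2), so none was counted as a duplicate.

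Replicate numbers pair the samples: deviations from group means correlated at 0.159 to 0.558 in the 18 same-number pairs and at -0.517 to 0.163 in the 36 others. The labels do not say what a number shares. Blocked values stand beside the main results they change, and as counts for the gene lists.

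The genes named were Cbx3, the 5 genes whose mean of both line differences is nearest the median, the 10 highest without overlap between lines, all genes at or below 0 in both comparisons, up to 4 genes per role list by mean CPM, up to 10 called genes per PMA comparison by unadjusted p, and genes at the 2 CPM limit, leaving out clone and predicted names. Further called genes were named after their values were seen. The chromosome, the gene lists and the markers were chosen with earlier results of these data known. Alternatives were other scalings, filters, DESeq2 1.42.0, a GC content and length correction (splines, 5 degrees of freedom), the replicate block, the groups compared alone, and leaving out each library. Some genes that these rules would name are not reported here.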

Additional observations from a re-analysis of the deposited data

How the results depend on the processing

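The chromosome-wide median stayed above 0 under every alternative tried, at 0.25 (without R replicate 2) to 0.30 without PMA and 0.24 to 0.26 with PMA over the fits that left out 1 library. It was 0.33 and 0.32 with upper-quartile factors, 0.18 with PMA under library totals, 0.28 with PMA under a filter of mean CPM 1, 0.30 with PMA under the correction for GC content and length (0.30 also with the replicate block), and 0.15 and 0.30 over the chromosome's genes of other classes. Counts of called genes depended on how the spread was modelled. Without PMA, 13 were called higher, and 134 with the replicate block, 27 with the GC content and length correction, 181 with both, 43 with DESeq2, 0 in a fit of the 2 groups alone and 4 to 15 without 1 library. All genes called in either direction were 219, and 2083, 396, 2819, 775 and 12 in the same order of settings. They were 46 without R replicate 3 and 329 without HPg replicate 2. With PMA, 23 became 140, 46, 203 and 54, 15 among genes of mean CPM 10 or more, and 2 to 25 without 1 library. All genes called in either direction went from 411 to 3090, 603, 3449 and 1184. They were 60 without HPg_p replicate 3 and 568 without HPg replicate 2. Counts on the chromosome and over all genes thus changed together. PMA in HPg called 18, against 9 with library totals, 11 with upper-quartile factors, 74 with the block, 68 with block and correction, 36 with DESeq2, 6 in the 2 groups alone and 6 to 22 without 1 library. PMA in the knockout-labelled line called 16, against 68, 30 with the correction, 93 with both, 26 with DESeq2, 10 in the 2 groups alone and 7 to 18 without 1 library. For PMA in either line, the shares of all genes are given above for the main fit and the block only. Genes lower than their chromosome in either line comparison were 1, against 26 with the block, 0 with the correction, 29 with both, 0 in the 2 groups alone and 0 to 2 without 1 library. For these, shares of all genes are given above for the main fit only. The groups of 20 neighbours above 0 were 18 without PMA and 17 or 18 with it, and the interaction called 0 throughout the fits that left out 1 library.

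Some named genes changed sign when 1 library was left out. Over the 12 such fits the untreated difference ran from -0.15 (without HPg replicate 2 or R replicate 1) to 0.20 for Psmb5, from -0.29 (without R replicate 1, and -0.24 without HPg replicate 2) to 0.39 for Lgals3, from -0.012 (without HPg replicate 2) to 0.31 for Hnrnpc and from -0.084 (without HPg replicate 2) to 0.49 for Rps24. It ran from -0.064 (without HPg replicate 2, and below 0 without R replicate 1) to 0.27 for Dlgap5, from -0.20 (without HPg replicate 2, and below 0 without R replicate 1 or 3) to 0.26 for Apex1, from -0.20 (without R replicate 1, and below 0 without HPg replicate 2 or R replicate 3) to 0.21 for Tkt, and from -0.14 (without R replicate 2, and below 0 without HPg replicate 1 or 3) to 0.19 for Mmp14. Gpc6 against its chromosome ran from -1.12 (without R replicate 2) to 0.26 (without HPg replicate 2), and Ercc6 with PMA from -0.019 (without R_p replicate 2) to 0.19. The cause was not tested. Egr3 in untreated HPg cells is limited by its few reads.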
